A study of Mus musculus with 10 samples.

Results

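The chemokine genes and a set of acute phase and inflammatory cytokine genes were followed in embryonic stem (ES) cells of the mouse line CGR8 (strain SV129) and in cells differentiated from them. A gene was a member if its symbol in the platform annotation began with Ccl or Cxcl followed by a number, or if it was Saa1, Saa2, Saa3, Lcn2, Il6, Il1b, Il1rn or Tnf. Only probe sets annotated to 1 symbol counted. Where a gene had several, its probe set was chosen by the average expression value across all 10 arrays, the brightest being kept, so the levels are a description. That average took in EBIO and control arrays alike, without using their difference. This gave 39 of the 18193 genes on the array, with 18 CC chemokines, 13 CXC chemokines and the 8 other genes, from 57 of 34945 single-symbol probe sets.

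Differentiation took 5 days in embryoid bodies, clumps of cells in which ES cells form many tissues, and a further 10 days in culture, either with EBIO (n = 2 arrays) or without it (n = 2). The ES cells had either received 1 mM EBIO for 3 days (n = 3) or been left untreated (n = 3), and each ES group held 1 array each of passages 25, 26 and 27. EBIO opens calcium-activated potassium channels of the small and intermediate conductance types. The labels give no EBIO dose for the differentiated cells and name no sorting step, so each array measured RNA of a whole culture. Values are the authors' log2 RMA expression values, on which 1 unit is a doubling, and differences are EBIO minus control.

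Chemokines are small secreted proteins that direct the movement of leukocytes through G protein-coupled receptors, and they are divided into CC and CXC families by the spacing of their first cysteines. Inflammatory members are switched on by NF-kB and interferon signalling in macrophages, fibroblasts, endothelium and other cells, while homeostatic members such as Cxcl12 are made steadily by stroma. Serum amyloid A and lipocalin 2 are acute phase proteins, whose synthesis is raised by interleukin-1, tumour necrosis factor and interleukin-6 through NF-kB, STAT3 and C/EBP factors.

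The 4 promoters below belong to the 3 genes with the largest falls in differentiated cells and the gene with the largest rise, among members present in the RefSeq promoter table (GRCm38.p6; 29 of the 39 members matched). Each is the stretch of 250 bases before the gene's start, written 5′ to 3′ on the gene's strand. Capitals mark matches to an NF-kB motif (GGG, any 3 bases, TTCC) or a C/EBP motif (TTGCNNAA), searched on both strands; a TATA box (TATAAA, both strands) was also searched and overlapped neither match in capitals. The Saa3 stretch lies at chr7:46715677-46715926 on the minus strand, that of Ccl12 at chr11:82101595-82101844 on the plus strand, that of Ccl9 at chr11:83578637-83578886 on the minus strand, and that of Ccl25 at chr8:4324960-4325209 on the plus strand, the first of 2 Ccl25 promoters in the table.
Saa3: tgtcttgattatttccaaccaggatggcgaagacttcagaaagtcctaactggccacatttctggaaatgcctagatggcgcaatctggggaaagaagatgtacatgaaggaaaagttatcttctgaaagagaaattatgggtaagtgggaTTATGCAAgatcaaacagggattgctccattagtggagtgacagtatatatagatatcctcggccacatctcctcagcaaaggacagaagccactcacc
Ccl12: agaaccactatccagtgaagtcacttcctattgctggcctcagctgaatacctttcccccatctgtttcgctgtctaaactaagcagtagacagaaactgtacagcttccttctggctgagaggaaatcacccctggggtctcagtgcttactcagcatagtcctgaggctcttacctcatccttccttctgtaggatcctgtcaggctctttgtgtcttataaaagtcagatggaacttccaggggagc
Ccl9: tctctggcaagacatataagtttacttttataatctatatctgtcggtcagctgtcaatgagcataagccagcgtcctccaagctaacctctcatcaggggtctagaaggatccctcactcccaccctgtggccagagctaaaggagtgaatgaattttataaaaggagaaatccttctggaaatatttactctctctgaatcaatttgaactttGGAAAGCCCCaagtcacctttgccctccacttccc
Ccl25: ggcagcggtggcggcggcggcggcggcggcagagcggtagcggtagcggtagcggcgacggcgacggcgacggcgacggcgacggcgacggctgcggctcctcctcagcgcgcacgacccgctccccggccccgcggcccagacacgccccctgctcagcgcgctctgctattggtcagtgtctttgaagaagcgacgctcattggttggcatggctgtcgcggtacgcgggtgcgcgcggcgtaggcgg

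The Saa3 stretch held 1 C/EBP match at -99 to -92, counted back from the start, the Ccl9 stretch held 1 NF-kB match at -35 to -26 and 3 TATAAA matches, and the Ccl12 stretch held 1 TATAAA match. The printed Ccl25 stretch held none of the 3 motifs. It had 74.8% G and C bases and 45 CpG dinucleotides, against a median of 52.4% and 6 CpG over all 32851 promoters of the table. The second Ccl25 promoter held 1 TATAAA match, 51.6% G and C bases and 0 CpG, so these traits depended on the promoter taken. Over the members, 9 of 29 had an NF-kB match, against 5.31% of 27025 genes in the table, 7 of 29 a C/EBP match, against 10.84%, and 10 of 29 a TATAAA match, against 14.33%. Among the members lower with EBIO in differentiated cells 3 of 11 had the NF-kB match, and among the remaining members 6 of 18 did. The C/EBP match was in 1 of 11 and 6 of 18 of them, and the TATAAA match in 3 of 11 and 7 of 18. Cxcl1, Cxcl2 and Cxcl3, which stand in a row of 4 with Cxcl15 on chromosome 5, had 3 NF-kB matches each.

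In differentiated cells Saa3 fell 247-fold with EBIO, the largest fall among the members tested, and the monocyte and macrophage chemokines Ccl2, Ccl3, Ccl6, Ccl9 and Ccl12 fell by more than 4 log2 units each. Of the 39 members 22 were bright enough to test (over their array's median on at least 2 of the 4 arrays), and 17 of these were lower and 3 higher (limma adjusted p under 0.05 over all genes tested). Over all 12330 genes tested 32.6% were lower and 33.3% higher. Of the 22 members, 8 passed the brightness filter only through the control arrays: Ccl3, Ccl5, Ccl6, Ccl9, Ccl12, Cxcl10, Cxcl14 and Tnf. Such genes could come out only lower or uncalled, so the same fit was also read with no filter. It called 25 of the 39 members lower and 2 higher, against 23.5% lower and 22.6% higher of 18193 genes. All 8 were again lower with no filter (adjusted p = 1.04e-05 to 0.00758, limma). The values of both groups were apart on every array for 35 members, with EBIO below control in 31 and above it in 4, against 34.7% and 38.0% of 18193 genes. The median difference over all 39 members was -0.71, and that over the 12330 genes tested was 0.02. A fall of at least 1 log2 unit past the threshold was found in 11 members, and in 12.4% of all genes tested.

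**Figure D1:**
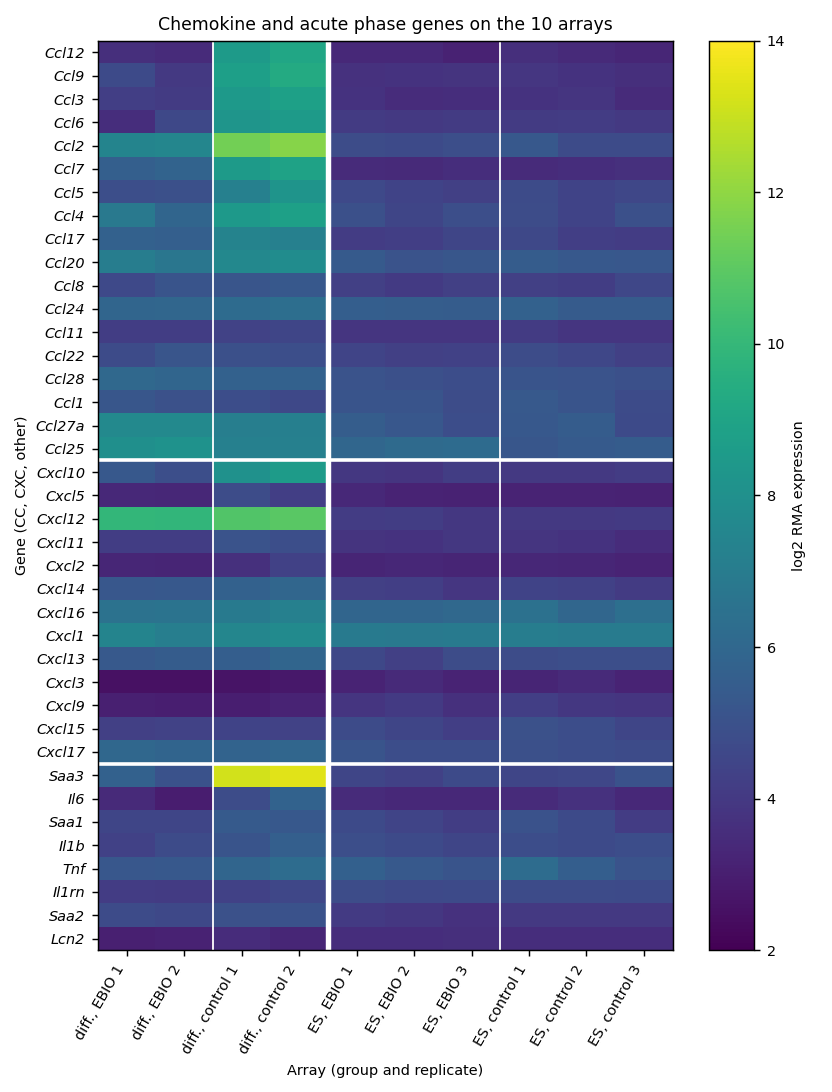
log2 RMA expression of the 39 genes (rows, by family, each ordered by its EBIO effect in differentiated cells) on the 10 arrays (columns: differentiated cells with EBIO and control, then ES cells with EBIO and control). Saa3 (5.72 and 5.02 with EBIO against 13.19 and 13.45 in controls) and Ccl2 (7.41 and 7.51 with EBIO against 11.46 and 11.80 in controls) stand out in the 4 differentiated columns; colours compare arrays within a stage, since both stages were normalized separately.

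Saa3, a serum amyloid A made mainly outside the liver, read 5.72 and 5.02 in EBIO-treated differentiated cells, against 13.19 and 13.45 in their controls. The groups were far apart, and the EBIO arrays lay near or under their array medians of 5.62 and 5.59, where RMA understates differences. The difference was -7.95 (SE 0.23, 247-fold lower, adjusted p = 4.59e-06, limma), rank 4 among the falls of the 12330 genes tested.

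Ccl2, Ccl7 and Ccl12, ligands of Ccr2 that draw monocytes into tissues, all fell. Ccl2 read 7.41 and 7.51 with EBIO, against 11.46 and 11.80 in controls, an 18.0-fold fall (-4.17, SE 0.12, adjusted p = 4.72e-06). Ccl12, a mouse monocyte chemoattractant, read 3.60 and 3.46 with EBIO, against 8.54 and 9.10 in controls (-5.29, SE 0.18, adjusted p = 8.11e-06). Ccl7, a further monocyte chemoattractant, read 5.62 and 5.80 with EBIO, against 8.53 and 8.94 in controls (-3.02, SE 0.15, adjusted p = 2.47e-05). In all of them the control arrays lay close together and well above both EBIO arrays. Ccl2 stayed over the array medians with EBIO, whereas Ccl12 ended far below them.

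Ccl3, Ccl4 and Ccl5 are inflammatory chemokines made by macrophages and activated lymphocytes. Ccl3 read 4.23 and 4.10 with EBIO, against 8.50 and 8.80 in controls (-4.48, SE 0.12, adjusted p = 3.28e-06). Ccl4 read 6.87 and 5.92 with EBIO, against 8.44 and 8.80 in controls (-2.23, SE 0.31, adjusted p = 0.00142). Ccl5 read 4.90 and 4.92 with EBIO, against 7.22 and 8.20 in controls (-2.80, SE 0.30, adjusted p = 0.000469). The replicate spread was widest in the EBIO arrays for Ccl4 and in the control arrays for Ccl5, and in both the gap between the groups was wider than that spread. Ccl6 and Ccl9 are Ccr1 ligands of rodents that myeloid cells express. Ccl9 read 4.71 and 3.99 with EBIO, against 8.78 and 9.33 in controls (-4.70, SE 0.28, adjusted p = 4.87e-05). Ccl6 read 3.55 and 4.61 with EBIO, against 8.26 and 8.52 in controls (-4.31, SE 0.33, adjusted p = 0.000130). A second, dimmer probe set gave -5.28 for Ccl9 and -2.08 for Ccl6, so the size of the Ccl6 fall depended on the probe set.

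These genes are neighbours. In RefSeq's order of protein-coding genes on chromosome 11, Ccl5, Ccl9, Ccl6, Ccl3 and Ccl4 form a row of 5. All 5 fell, where 32.6% of 12330 genes tested were lower. Of these, Ccl5, Ccl9, Ccl6 and Ccl3 passed the brightness filter only through the control arrays, so they could come out only lower or uncalled. Ccl2, Ccl7, Ccl11, Ccl12, Ccl8 and Ccl1 form a row of 6 on the same chromosome, and it was mixed. Ccl2, Ccl7 and Ccl12 fell there, while Ccl11, an eosinophil chemoattractant, Ccl8, and Ccl1, a ligand of Ccr8, were too dim to test, with differences of -0.26, -0.35 and 0.36.

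Among the other CC chemokines, Ccl17, a ligand of Ccr4 made by dendritic cells, read 5.73 and 5.65 with EBIO, against 7.35 and 7.22 in controls (-1.59, SE 0.08, adjusted p = 2.82e-05). Ccl22, the other Ccr4 ligand, was too dim to test and its groups overlapped (0.04). Ccl20, the ligand of Ccr6, fell by 0.83 (adjusted p = 0.00457), and Ccl24, an eosinophil chemoattractant, by 0.33 (adjusted p = 0.0162). The call of Ccl24 was lost without control array 2, EBIO array 1 or EBIO array 2 (adjusted p = 0.0712, 0.0649 and 0.0562; differences -0.24, -0.32 and -0.33).

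The 3 members that rose were Ccl25, Ccl27a and Ccl28. Ccl25, the ligand of Ccr9 known from thymus and small intestine, read 7.98 and 8.13 with EBIO, against 7.22 and 7.21 in controls, a 1.79-fold rise (0.84, SE 0.08, adjusted p = 0.000323). Ccl27a, a ligand of Ccr10 known from skin, read 7.65 and 7.66 with EBIO, against 7.14 and 7.16 in controls (0.51, adjusted p = 0.00114). Ccl28, the mucosal ligand of Ccr10, read 6.07 and 5.91 with EBIO, against 5.72 and 5.72 in controls (0.27, adjusted p = 0.0278). The groups of all 3 were apart and the rises small. The Ccl28 call was lost without control array 1, control array 2 or EBIO array 1 (differences 0.27, 0.27 and 0.19). It was also lost with no filter (adjusted p = 0.0509, limma). A second Ccl25 probe set differed by 0.45, and the other Ccl28 probe sets were at 0.11 and -0.06. The calls of Ccl27a, Ccl28, Ccl24 and Tnf were also lost where all 4 groups shared 1 estimate of the spread (adjusted p = 0.145, 0.123, 0.0751 and 0.0636).

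**Figure D2:**
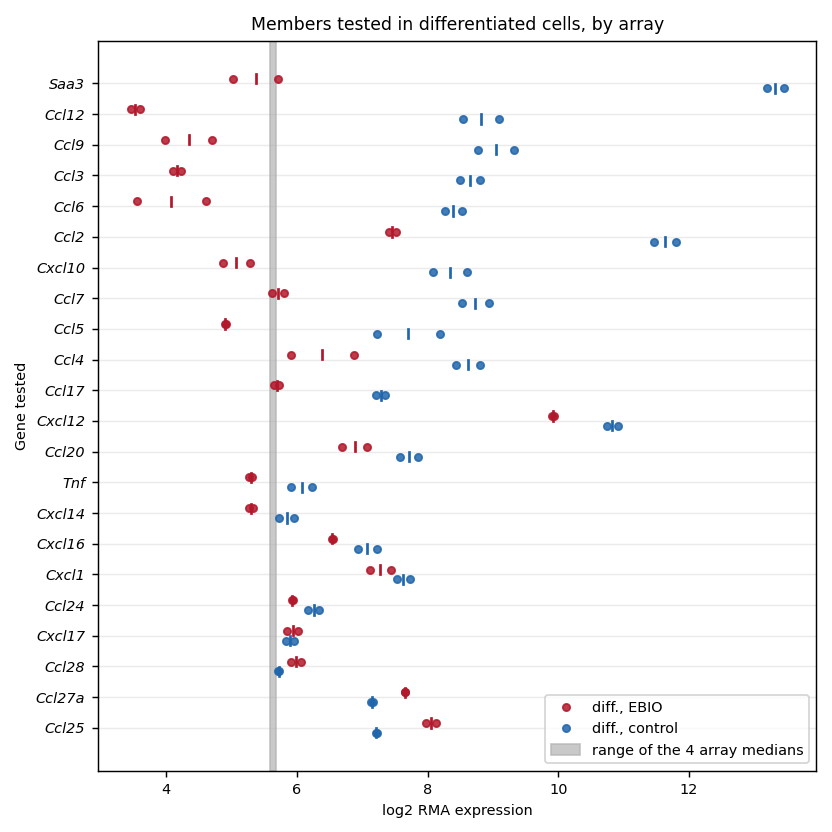
log2 RMA expression (horizontal axis) on each of the 2 EBIO and 2 control arrays of differentiated cells (points; ticks mark group means) for the 22 genes tested, with the largest fall at the top. Saa3 reads 5.72 and 5.02 with EBIO against 13.19 and 13.45 in controls, and the lowest rows, Ccl28, Ccl27a and Ccl25, have EBIO above control; the grey band spans the 4 array medians.

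In the CXC family 4 of 6 tested members were lower and none higher, against 32.6% lower and 33.3% higher of all 12330 genes tested. Cxcl10 and Cxcl14, both lower, passed the brightness filter only through the control arrays. Cxcl10, an interferon-induced ligand of Cxcr3 that attracts T cells, read 5.28 and 4.87 with EBIO, against 8.08 and 8.61 in controls (-3.27, SE 0.21, adjusted p = 6.70e-05). Of the other Cxcr3 ligands, Cxcl11 read 4.20 and 4.20 with EBIO, against 5.05 and 4.88 in controls, and Cxcl9 overlapped between the groups; both were too dim to test, and second probe sets gave 0.01 for each. Cxcl12, the stromal ligand of Cxcr4, read 9.94 and 9.90 with EBIO, against 10.74 and 10.91 in controls (-0.90, SE 0.08, adjusted p = 0.000280). It stayed over the array medians in both groups, and its other probe sets gave -1.26 and 0.00.

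Cxcl14, known from epithelia and fibroblasts, fell by 0.54 (adjusted p = 0.00367), and Cxcl16, the transmembrane ligand of Cxcr6, also fell by 0.54 (adjusted p = 0.00663). Cxcl17, a mucosal chemokine, did not pass (0.05, 95% interval -0.18 to 0.27, adjusted p = 0.685). Second probe sets gave -2.13 for Cxcl14 and -1.85 for Cxcl16, several times the differences of those used.

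The ligands of Cxcr2, which attract neutrophils, were near the dim end or rested on the choice of probe set. Cxcl1 read 7.43 and 7.12 with EBIO, against 7.53 and 7.72 in controls, and missed the threshold (-0.35, 95% interval -0.67 to -0.03, adjusted p = 0.0546). It passed without EBIO array 1 (-0.51, adjusted p = 0.0155). Its other probe sets read 6.95 and 6.71 with EBIO against 8.13 and 8.16 in controls, and 4.38 and 4.42 with EBIO against 6.78 and 6.80 in controls, differences of -1.32 and -2.39. Cxcl2, Cxcl3 and Cxcl5 were too dim to test, with differences of -0.71, -0.17 and -1.15. Cxcl13, which attracts B cells through Cxcr5, and Cxcl15, a lung chemokine of mice, were also too dim, at -0.33 and -0.06. A second Cxcl13 probe set differed by -0.58. The second Cxcl15 probe set differed by -1.77, and both of its EBIO arrays (3.49 and 3.79) lay below its control arrays.

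**Figure D3:**
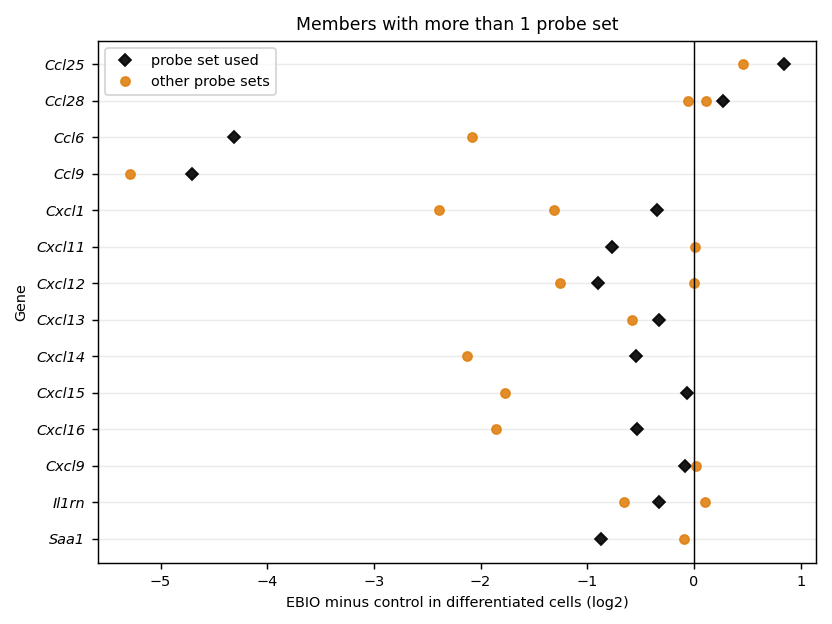
EBIO minus control in differentiated cells (log2, horizontal axis) for each probe set of the 14 members with more than 1 single-symbol probe set; diamonds mark the probe set used and circles the others. The probe set used for Cxcl1, Cxcl14, Cxcl15 and Cxcl16 had a smaller fall (-0.35, -0.54, -0.06 and -0.54) than another of the same gene (-2.39, -2.13, -1.77 and -1.85).

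The acute phase genes other than Saa3 and the cytokines that drive them were mostly too dim to test. Saa1, made mainly by the liver, read 4.50 and 4.50 with EBIO, against 5.41 and 5.32 in controls, and its neighbour Saa2 read 4.75 and 4.61 with EBIO, against 4.97 and 5.00 in controls. Lcn2, which binds bacterial siderophores, read 3.06 and 3.15 with EBIO, against 3.51 and 3.28 in controls. All 12 of these values lay under the array medians, so they set no level for these genes. With no filter the differences were -0.87 for Saa1, -0.31 for Saa2 and -0.29 for Lcn2 (adjusted p = 0.000479, 0.0317 and 0.0704, limma). A second Saa1 probe set differed by only -0.10, so the Saa1 value depended on the probe set.

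Il6, the main inducer of liver acute phase proteins, read 3.42 and 2.97 with EBIO, against 4.79 and 5.76 in controls. Only 1 of its 4 arrays was over its median, and with no filter the difference was -2.08 (adjusted p = 0.00413, limma). Il1b read 4.31 and 4.73 with EBIO, against 5.11 and 5.65 in controls, and Il1rn, the secreted antagonist of its receptor, read 4.14 and 4.09 with EBIO, against 4.33 and 4.57 in controls. With no filter their differences were -0.86 and -0.33 (adjusted p = 0.0244 and 0.0467). The other Il1rn probe sets gave 0.11 and -0.65, so its direction depended on the probe set. Tnf was tested, but passed the brightness filter only through the control arrays. It read 5.27 and 5.32 with EBIO, against 5.91 and 6.24 in controls, and fell by 0.78 (SE 0.12, adjusted p = 0.00203, limma). With no filter its adjusted p was 0.00416 (limma).

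In ES cells Ccl25 was the only member to pass the test. Of the 39 members 18 were tested, 1 was higher and none was lower, where 23.5% of 12096 genes tested were higher and 21.2% lower. A single member had an unadjusted p under 0.05. With no filter 1 of the 39 was again higher and none lower, against 15.6% and 14.7% of 18193 genes. The groups were apart in 1 member with EBIO above control and in 2 with EBIO below it, against 19.9% and 22.0% of 18193 genes. Ccl25 read 5.94, 6.14 and 6.21 with EBIO, against 5.22, 5.40 and 5.47 in controls (0.73, 95% interval 0.43 to 1.03, SE 0.13, adjusted p = 0.00197). Its groups did not overlap, and its second probe set differed by 0.23. The EBIO arrays of Cxcl1 and Cxcl13 lay below all their control arrays, and neither passed (-0.12 and -0.30, adjusted p = 0.420 and 0.137). Cxcl16 differed by -0.32 (adjusted p = 0.130), and without control array 2 by -0.47 (adjusted p = 0.0328).

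Saa3 read 4.52, 4.31 and 4.71 in EBIO-treated ES cells, against 4.52, 4.55 and 5.00 in controls, and was too dim to test, as were Saa2, Lcn2 and Il6. Il6 read 3.50, 3.40 and 3.37 with EBIO, against 3.49, 3.71 and 3.40 in controls. Lcn2 was between 3.56 and 3.62 on the EBIO arrays and between 3.58 and 3.59 on the control arrays, and Saa2 averaged 3.89 with EBIO and 4.01 in controls. Tnf read 5.70, 5.34 and 5.12 with EBIO, against 6.23, 5.59 and 5.09 in controls (-0.25, adjusted p = 0.502). Il1b, Il1rn and Saa1 differed by -0.08, -0.03 and -0.16 and were not called. The groups of these 3 and of Tnf overlapped. All 21 untested members had group means between 3.19 and 4.69 and differences between -0.18 and 0.12, at the dim end, where a difference would be hard to see.

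Whether the EBIO effects of the 2 stages differed was tested directly. Stage and days of EBIO (10 in differentiated cells, 3 in ES cells) differed together, and the dose in differentiated cells is not given. A difference due to stage therefore cannot be told apart from 1 due to days or dose. The effect in differentiated cells minus the effect in ES cells passed the threshold for 14 of 28 tested members, all lower and none higher, against 25.0% lower and 20.5% higher of 13706 genes. Ccl12, Ccl3, Ccl6, Ccl9, Cxcl10 and Cxcl14 passed the brightness filter only through the differentiated control arrays, which favoured a lower value. With no filter Cxcl14 was not called (adjusted p = 0.157, limma), and the rest of these were again lower (adjusted p = 3.85e-08 to 2.41e-06, limma). The difference between the effects was -7.77 for Saa3, -5.14 for Ccl12, -4.68 for Ccl9, -4.41 for Ccl3, -4.30 for Ccl6 and -4.03 for Ccl2, and between -3.23 and -0.68 for Cxcl10, Ccl7, Ccl5, Ccl4, Ccl17, Cxcl12, Il1b and Ccl20. The calls of Ccl20 and Il1b were lost when single arrays were left out. That of Ccl20 (-0.68) was lost without ES control array 2, ES EBIO array 1, differentiated control array 2 or differentiated EBIO array 2 (adjusted p = 0.0539 to 0.142, differences -0.65 to -0.49). That of Il1b (-0.77) was lost without ES control array 2, ES EBIO array 1 or 2, differentiated control array 2 or differentiated EBIO array 1 (adjusted p = 0.0519 to 0.165, differences -0.78 to -0.50). For Ccl25, the member higher at both stages, the difference was 0.11 (SE 0.18, adjusted p = 0.652), which does not show that the rises were equal. Of the 17 members that fell in differentiated cells 10 were too dim to test in ES cells, where a fall could hardly have been measured.

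**Figure D4:**
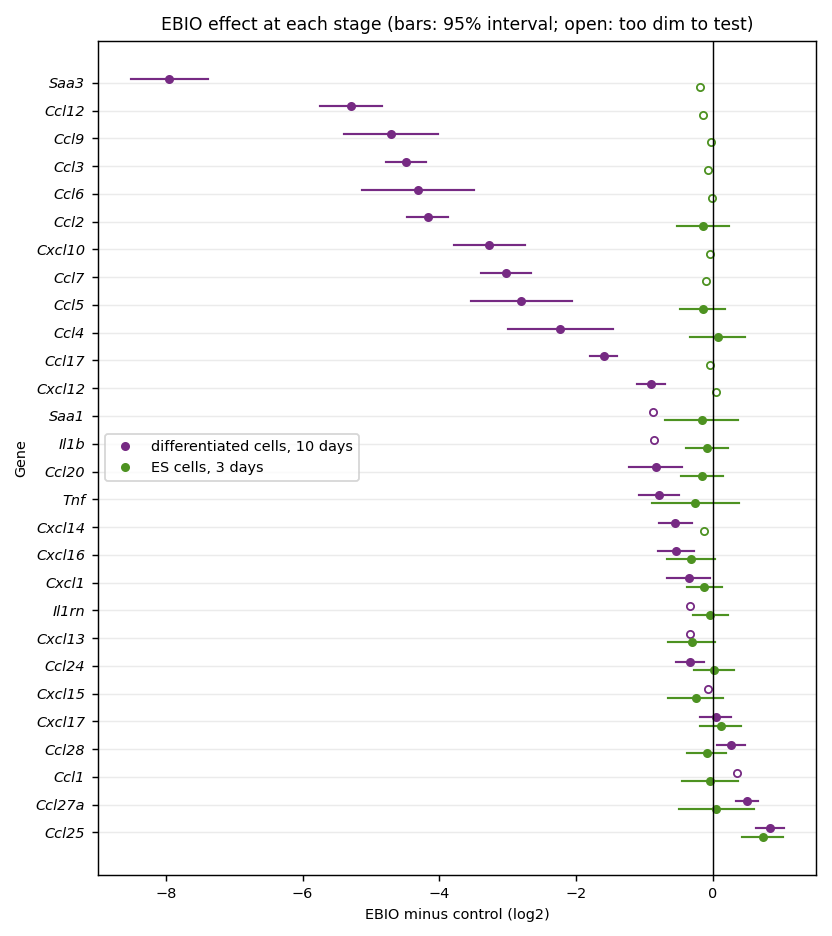
EBIO minus control (log2, horizontal axis) in differentiated cells and ES cells for the 28 members tested for a difference between stages; bars are 95% intervals from limma and open circles mark members too dim to test at that stage. Saa3 stands at -7.95 in differentiated cells and -0.18 in ES cells, and Ccl25 at 0.84 in differentiated cells and 0.73 in ES cells.

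Markers of several cell types moved with the chemokines in differentiated cells, and in RNA of whole cultures fewer cells of a type and less RNA per cell cannot be told apart. Of all 12330 genes tested 32.6% were lower and 33.3% higher. Of 16 macrophage and leukocyte markers 15 were tested and all 15 were lower, with a median of -6.14, against 0.02 over all genes. C1qb, a complement component of macrophages, differed by -7.95 and Laptm5, a lysosomal protein of blood cells, by -6.81. The summed linear signal of the list was 435 to 444 with EBIO, against 22833 to 28257 in controls. With EBIO 2 of the 16 genes were over the array median on every array, and in controls 15 were. Markers over it only in controls could come out only lower or uncalled, and list counts with no filter were not taken. All 9 fibroblast markers with a probe set were lower (summed signal 3760 to 3992 with EBIO, against 57663 to 59490 in controls), as were 7 of 7 tested endothelial markers (459 to 461 with EBIO, against 1663 to 1691 in controls) and 7 of 7 tested liver and endoderm markers (354 to 383 with EBIO, against 4532 to 6324 in controls). All 8 cardiomyocyte markers were higher (86496 to 88352 with EBIO, against 9264 to 10611 in controls). Of 2 tested neutrophil markers 1 was lower (243 to 255 with EBIO, against 257 to 261 in controls), and none of 2 tested lymphocyte markers was called (217 to 229 with EBIO, against 225 to 242 in controls). The part of these cell types in the chemokine differences was not tested. In ES cells 1 of 5 tested macrophage and leukocyte markers was lower (Laptm5, -4.42), against 21.2% of 12096 genes tested. Laptm5 averaged 4.69 with EBIO and 9.11 in untreated ES cells, so its signal was not limited to the differentiated cultures. All 8 pluripotency markers were lower with EBIO in ES cells, against the same share. Of those 8, 7 were over the array median on every EBIO-treated ES array and 8 on every untreated one, and all 8 cardiomyocyte markers were over it on every differentiated array of both groups. The difference between the 3′ and 5′ Actb control probe sets, a sign of RNA quality, was 0.45 to 0.48 with EBIO and 0.40 to 0.46 in controls of the differentiated cells, and 0.08 to 0.20 with EBIO and 0.33 to 0.50 in controls of the ES cells; its part in the results was not tested.

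The receptors and signalling genes around the members also differed. Their counts in differentiated cells stand beside 32.6% lower and 33.3% higher of all 12330 genes tested. Of 21 chemokine receptors with a probe set 7 were tested in differentiated cells, and 4 were lower and none higher. Cx3cr1, the fractalkine receptor of monocytes and macrophages, averaged 5.42 ± 0.09 with EBIO, against 8.74 ± 0.28 in controls (SD, n = 2 each; -3.32), and Cxcr4, the receptor of Cxcl12, averaged 4.12 ± 0.08 with EBIO, against 6.71 ± 0.0036 in controls (SD, n = 2 each; -2.59). Both were over the array medians only in controls, so they could come out only lower or uncalled. Of 2 other chemokine ligands tested, Pf4, platelet factor 4, was lower (-4.70). Of 9 other acute phase genes tested 8 were lower and none higher, among them Serping1, the C1 inhibitor (-6.15), and Serpina3n, a serine protease inhibitor (-3.83). With EBIO 2 of the 21 acute phase genes with a probe set were over the array median on every array, and in controls 9 were. Genes over it only in controls could come out only lower or uncalled, and list counts with no filter were not taken. The macrophage, fibroblast, endothelial and liver marker values above were lower as well, and their part in these lists was not tested.

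In the pathways that feed the members, counts in differentiated cells are set beside the 32.6% lower and 33.3% higher of all 12330 genes tested. Of the genes named here, Icam1, Bcl3, Osmr, Cd14 and Il33 were over the array medians only in controls. Such genes could come out only lower or uncalled, and list counts with no filter were not taken. Of 17 tested NF-kB genes 12 were lower and 2 higher in differentiated cells, with Icam1, an adhesion molecule (-4.34), and Bcl3, a cofactor of the IkB family (-3.05), lower, and Rel, a subunit (0.46), and Ikbkg, the kinase regulator NEMO (0.30), higher. Of 15 tested IL-6, STAT3 and C/EBP genes 6 were lower and 3 higher, with Osmr, the oncostatin M receptor (-5.34), and Socs3, a feedback inhibitor (-2.87), lower, and Jak1, a kinase (0.71), and Stat3 itself (0.45) higher. The median of these 15 genes was 0.11, against 0.02 over all genes tested. Of 17 tested IL-1, TNF and Toll-like receptor genes 13 were lower and 2 higher, with Cd14, the endotoxin co-receptor of monocytes (-5.54), and Il33, an alarmin (-5.03), lower, and Il1rap, a receptor subunit (0.79), and Traf6, an adaptor (0.32), higher.

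In ES cells the counts in these lists were small and are set beside the shares of all genes tested, 23.5% higher and 21.2% lower of 12096. Of 15 tested NF-kB genes 4 were higher and 6 lower, with Nfkbiz (2.40) and Rela (1.10) higher and Icam1 (-3.30) and Bcl3 (-2.28) lower. Of 13 tested IL-6, STAT3 and C/EBP genes 5 were higher and 2 lower, with the kinases Jak1 (1.37) and Jak2 (1.36) higher and the kinases Tyk2 (-0.69) and Pim1 (-0.68) lower. Of 12 tested IL-1, TNF and Toll-like receptor genes 2 were higher and 4 lower. Tirap (1.09), an adaptor, and Tnfrsf1a (0.64), a TNF receptor, were higher. Irak3 (-2.12) and Irak1 (-0.87), members of the IL-1 receptor-associated kinase family, were lower. None of 6 tested chemokine receptors and none of 4 tested other acute phase genes was called, and none of the 10 had an unadjusted p under 0.05.

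**Figure D5:**
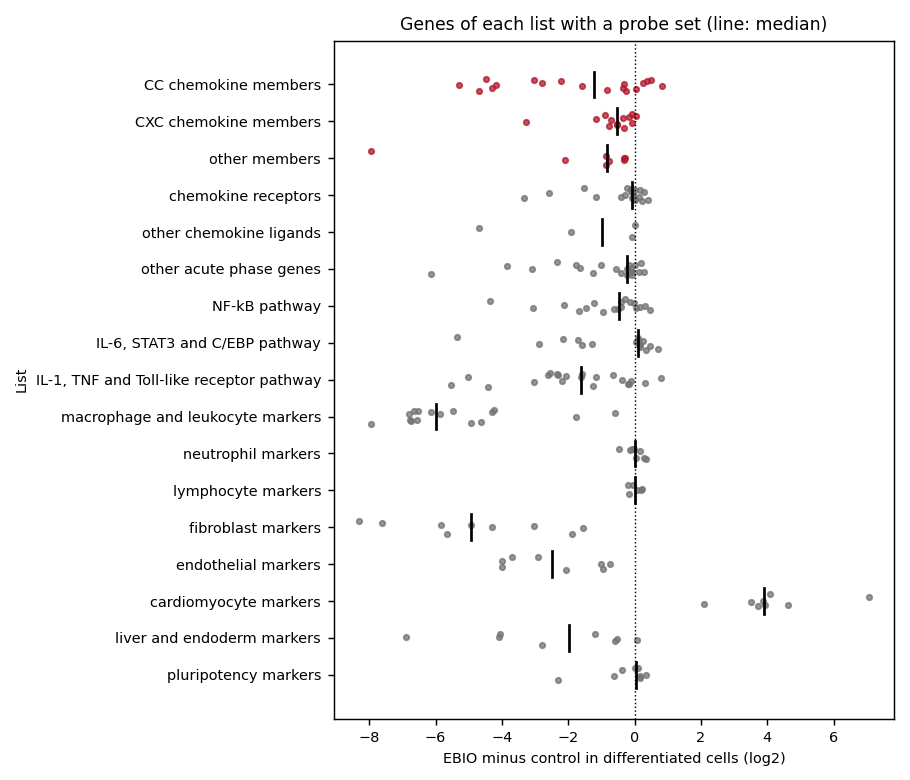
EBIO minus control in differentiated cells (log2, horizontal axis) for every gene with a probe set in each list (points; vertical ticks are medians), with the members in red and the pathway and marker lists in grey. The macrophage and leukocyte markers lie furthest to the left with the fibroblast markers, and the cardiomyocyte markers lie to the right of 0.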

How the data were processed

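Total RNA was labelled with biotin by a one-cycle kit, per the labels' protocols, and hybridised to Affymetrix arrays. The authors deposited log2 expression values made with RMA, per the submitters' processing notes; a label names Bioconductor, and versions are not given in the sources used here. Both stages were normalized as separate sets: quantiles of array pairs differed, on average over all quantiles, by at most 0.0931 for ES pairs and 0.0497 for differentiated pairs, and by at least 0.910 for pairs across the stages. No level was therefore compared between stages. For arrays, the number of arrays limits the precision. The design text calls the samples of a group independent experiments.

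Of 45101 probe sets, 64 were controls and 932 had several symbols; symbols of 34741 single-symbol probe sets were matched to RefSeq. Testing required a value over the array's median on at least 3 ES or 2 differentiated arrays. Linear models (lmFit, contrasts.fit and eBayes of limma 3.58.1, under R 4.3.3) were fitted to each stage's own arrays, and to all 4 groups for the difference between stages, with Benjamini-Hochberg adjustment over all genes tested and a threshold of 0.05; the fits were checked on simulated data. The members and lists were chosen with earlier results of these data known. Per-array values were given for members past the threshold with a difference of at least 1 and for the 8 genes that are not chemokines; of each other list, at most the 2 called genes with the largest change in each direction were named. Members outside that rule were named to account for all 39, with values seen.

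ES replicates 1, 2 and 3 of both groups share a passage. Once group means were subtracted, same-numbered arrays correlated at 0.33, 0.23 and 0.62. EBIO array 2 correlated at 0.24 with control array 1, so the values did not single out the pairing of number 2. The main fit left the pairing out, and the passage as a block was an alternative. In differentiated cells the samples share only a number. Other alternatives were another filter or none, quantile normalization of all arrays, median-centring, averaging all probe sets of a gene, an intensity trend, 1 fit of all groups, and leaving out each array.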

Additional observations from a re-analysis of the deposited data

Results flagged for a closer look

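In 14 members the EBIO effect in differentiated cells differed from that in ES cells by the limma test of the difference itself (adjusted p under 0.05). Of these, Ccl12, Ccl3, Ccl6, Ccl9 and Cxcl10 passed the brightness filter only through the differentiated control arrays. Stage and days of EBIO (10 against 3) differed together and cannot be told apart, and the dose in differentiated cells is not given. On the log2 scale, the differentiated effect minus the ES effect was -7.77 for Saa3, -5.14 for Ccl12, -4.68 for Ccl9, -4.41 for Ccl3, -4.30 for Ccl6, -4.03 for Ccl2, -3.23 for Cxcl10, -2.93 for Ccl7, -2.65 for Ccl5, -2.30 for Ccl4, -1.55 for Ccl17, -0.96 for Cxcl12, -0.77 for Il1b and -0.68 for Ccl20. Groups of 2 or 3 arrays were too small to look for single arrays that stand apart.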

How the results depend on the processing

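In differentiated cells 255 of 268 values of 20 members under the alternatives kept direction and call, 13 lost the call and none reversed; for the difference between stages 185 of 196 values of 14 members kept both and 11 lost the call. The lost calls were those of Ccl24, Ccl28, Ccl27a and Tnf in differentiated cells and of Ccl20 and Il1b for the difference. Filtering at the 75th percentile left 9 members lower and 0 higher in differentiated cells and 0 higher in ES cells, since fewer genes were tested. In that fit 2526 of all genes were lower in differentiated cells, against 4022 in the planned fit. Fitting all 4 groups together left 1 member higher, and 2576 against 4110 genes higher; the cause was not tested. Leaving out 1 array in turn gave 0 to 1 members lower in ES cells (1, Cxcl16, without control array 2) and 0 to 2 members higher for the difference between stages (2, Ccl1 at 0.57 and Ccl27a at 0.69, without ES control array 3). Uncalled ES differences that changed sign were those of Il1rn under quantile normalization (0.0063) and median-centring (0.0084), of Saa1 and Tnf without ES control array 1, and of Il1b without EBIO array 3; leaving out single arrays gave -0.41 to 0.041 for Saa1, -0.52 to 0.047 for Tnf and -0.18 to 0.0051 for Il1b. The cause was not tested. With the passage as a replicate block 1 member was higher and 0 lower in ES cells; with the number as a replicate block 3 were higher and 17 lower in differentiated cells, and 0 higher and 17 lower for the difference between stages. The block changed no count of members by over 1.5 times and ended no call of a member. The deviations of same-numbered differentiated arrays correlated at -0.13, and crossing the numbers, chosen after seeing the data, gave 3 higher and 18 lower. Values under the array medians limit what can be read of dim members.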

Other observations

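The 4 chemokine probe sets with several symbols were outside the rule and are given as values. Of the 2 shared by Ccl27a, Ccl27b and predicted genes, the first read 8.87 and 8.70 in EBIO-treated differentiated cells, against 8.21 and 8.48 in controls, and the second 8.61 and 8.52 with EBIO, against 8.05 and 8.03 in controls. Both were higher on each EBIO array than on each control array, the same direction as the Ccl27a probe set of the report. The Ccl21 probe set, shared by several copies of this lymph node chemokine, averaged 5.72 with EBIO and 5.83 in controls, and the Ccl19 probe set averaged 5.03 with EBIO and 4.86 in controls. No test was run on these probe sets.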
